A study of Mus musculus with 24 samples.

Results

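The left ventricle of dnCREB mice given particulate matter (PM) was compared with the left ventricle of dnCREB mice given phosphate-buffered saline (PBS), with 3 arrays in each group. These 6 arrays were chosen by their titles from a series of 24 arrays, which covers lung and left ventricle in 8 groups of 3. All 24 arrays are labelled as male CD-1 mice of 20 weeks, and the series text gives groups of n = 3 animals. The dnCREB animals express a dominant negative CREB1 from the promoter of alpha myosin heavy chain, which restricts the transgene to heart muscle cells, so that the other cells of the ventricle have their own CREB1. The PM groups received 20 mg/kg of particles of 1.9 µm, and the PBS groups received the vehicle. The treatment label of the PM hearts names a harvest of lung at 36 h, and no separate time is given for the heart. Wild-type mice given PM or PBS, 3 ventricles each, and the lungs of the dnCREB mice served for the tests of difference.

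CREB1 is a transcription factor that is switched on by phosphorylation when cyclic AMP or calcium rises in a cell, for example after stimulation of beta-adrenergic receptors in heart muscle. It binds the cyclic AMP response element and drives immediate early genes, survival factors and regulators of metabolism. A dominant negative CREB1 in heart muscle cells leads to dilated cardiomyopathy, and these mice are used as a model of a failing heart. Inhaled particulate matter is known for lung inflammation and, beyond the lung, for effects on clotting, vessels and heart rhythm.

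Expression was read on Affymetrix arrays as log2 values, where a difference of 1 is a 2-fold difference. For each gene the probe set with the highest mean of the 24 arrays was used, and a gene was tested when at least 3 of the 12 heart arrays exceeded a log2 value of 4. This left 9962 of 18193 genes. Markers of heart muscle fitted the tissue label, with 12 of 12 above 4 on all 6 dnCREB ventricles, and 10 of 10 lung epithelial markers were at or below 4. In 2 Creb1 probe sets, chosen after their values were seen, the genotypes did not overlap. The first stood at 9.05, 10.68 and 11.44 in dnCREB PM hearts and 10.18, 12.00 and 9.18 in dnCREB PBS hearts, against 2.51 to 3.29 in the 6 wild-type hearts. The second ran from 8.42 to 10.43 in dnCREB PM hearts and from 8.42 to 10.58 in dnCREB PBS hearts, against 5.75 to 7.21 in the wild-type hearts. In the other Creb1 probe sets the genotypes overlapped. Examples are 9.39 to 10.16 in dnCREB hearts against 10.14 to 10.72 in wild-type hearts, and 7.70 to 9.22 against 8.49 to 9.67.

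The sex-chromosome genes divided the 6 dnCREB ventricles. Xist, the noncoding RNA of the inactive X chromosome in females, stood at 2.94, 3.05 and 13.71 in the PM hearts, against 2.95, 2.96 and 2.90 in the PBS hearts. Eif2s3y, on the Y chromosome, stood at 11.29, 10.26 and 3.09 in the PM hearts, against 11.06, 10.85 and 11.26 in the PBS hearts. PM replicate 3 therefore went against the male label, as did all 6 wild-type hearts, where Xist lay between 12.05 and 13.05. A second unevenness lay in the spread. PM replicate 1 differed by at least 1 log2 unit from the mean of the other PM hearts in 746 genes, PM replicate 2 in 587 and PM replicate 3 in 341, against 224, 323 and 507 genes for PBS replicates 1, 2 and 3, and 197 to 284 for a wild-type heart. Where leaving out 1 array moved the difference of a gene described heart by heart by over 1.5 times, the value without it is given below, or the extremes where several arrays did so.

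The first question was which genes differed in the dnCREB ventricle after particle exposure. limma, with p-values adjusted by Benjamini-Hochberg over all 9962 genes, called 0 genes (0.0%) at an adjusted p under 0.05, and the smallest adjusted p was 0.3545. Before adjustment, 490 genes (4.92%) had a p under 0.05, with 141 higher (1.42%) and 349 lower (3.5%) in the PM hearts. Under quantile normalization the split at this threshold was 262 higher and 301 lower. With arrays centred on their median it was 132 and 302. It was 183 and 214 without PBS replicate 3, and 226 and 303 without PM replicate 3, the heart with high Xist. The split was thus more even under quantile normalization or without either of these arrays, and it changed little with centring. The cause of these moves was not tested. Groups that did not overlap were found for 745 genes (7.48%), with 250 higher (2.51%) and 495 lower (4.97%). In the plot of p-values the smallest p-values were not more frequent than the others.

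**Figure D1:**
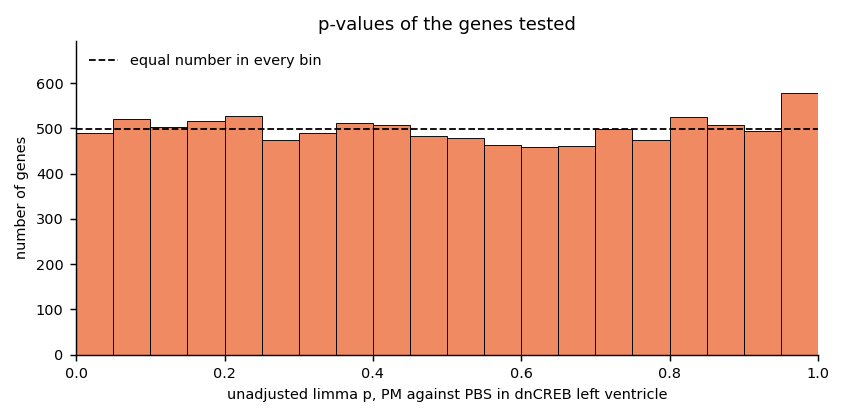
Number of genes (y axis) in each bin of the unadjusted limma p (x axis, bins of 0.05) for PM against PBS in dnCREB left ventricle, with a dashed line at the 498.1 genes per bin of an even spread. The lowest bin held 490 genes, below the dashed line.

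Most genes differed little, and the data bound how much could have been missed. The median difference over all genes was -0.03 and the median absolute difference 0.14, while 132 genes differed by at least 1 log2 unit, 58 of them higher and 74 lower. The 95% interval of a gene's difference had a median half-width of 0.42, and for 8352 genes (83.84%) it lay within 1 log2 unit of 0. These intervals rest on 1 estimate of the spread shared by the 4 heart groups. The median SD per gene was 0.23 in the PM hearts and 0.21 in the PBS hearts, against 0.19 and 0.16 in the wild-type PM and PBS hearts.

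The 5 genes with the smallest p-values were Shld1, Tmem62, Dapp1, Sclt1 and Mfap3l, and none passed adjustment. Shld1, a subunit of the shieldin complex that protects broken DNA ends from resection, stood at 7.68, 7.54 and 7.52 in the PM hearts, against 6.12, 6.62 and 6.02 in the PBS hearts. All PM hearts lay above all PBS hearts, with a difference of 1.33 ± 0.20 (SE, limma adjusted p = 0.3545) and a 95% interval of 0.89 to 1.76. A second Shld1 probe set gave 1.08 ± 0.86 (SE). All 6 wild-type hearts lay between 8.84 and 9.72, above every dnCREB heart. The membrane protein gene Tmem62 stood at 3.46, 4.01 and 3.71 in the PM hearts, against 4.76, 4.90 and 4.47 in the PBS hearts, a difference of -0.98 (95% interval -1.33 to -0.64, limma adjusted p = 0.3545). Its PM levels lay at or near the level of 4 below which genes were not tested.

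Dapp1 encodes an adaptor that binds phosphoinositide lipids at the membrane and is known from B cell receptor signalling. It stood at 3.86, 4.20 and 4.21 in the PM hearts, against 5.30, 5.08 and 5.11 in the PBS hearts, a difference of -1.07 (95% interval -1.49 to -0.66, limma adjusted p = 0.4851). Its second probe set gave -1.26 ± 0.41 (SE). Sclt1, a protein of the distal appendages of centrioles, stood at 7.62, 7.24 and 7.72 in the PM hearts, against 8.42, 8.21 and 8.20 in the PBS hearts, a difference of -0.75 (-1.04 to -0.45). Mfap3l, a membrane glycoprotein, stood at 8.71, 8.68 and 9.43 in the PM hearts, against 10.27, 10.17 and 10.33 in the PBS hearts, a difference of -1.32 (-1.85 to -0.78). In these 5 genes the groups did not overlap, and in wild-type hearts the differences were -0.31 for Shld1, -0.15 for Tmem62, 0.15 for Dapp1, 0.00 for Sclt1 and -0.13 for Mfap3l.

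Among genes at an unadjusted p under 0.05 whose groups did not overlap, the highest differences belonged to Hlf, Timp4 and, as described above, Shld1. Hlf, a clock-controlled transcription factor of the PAR bZIP family, stood at 6.14, 5.27 and 6.64 in the PM hearts, against 4.12, 3.72 and 4.77 in the PBS hearts, a difference of 1.81 (0.65 to 2.97). Timp4, the metalloproteinase inhibitor most typical of heart, stood at 10.35, 8.84 and 9.20 in the PM hearts, against 7.92, 8.16 and 8.18 in the PBS hearts (1.38, 0.25 to 2.5). Mmp14, a membrane-bound metalloproteinase that activates Mmp2, stood at 10.31, 8.85 and 9.01 in the PM hearts, against 8.21, 8.45 and 8.35 in the PBS hearts (1.05, 0.29 to 1.81). In Timp4 and Mmp14 PM replicate 1 was more than 1 log2 unit above the other PM hearts, and without it the differences were 0.93 for Timp4 and 0.59 for Mmp14. A second probe set gave 0.76 for Timp4 and 1.15 for Mmp14. Wild-type hearts stood at 6.02 to 7.76 for Hlf and 9.61 to 11.61 for Timp4, above all dnCREB PBS hearts.

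The other high differences were 1.26 for Sult1a1, a sulfotransferase of phenols, 1.11 for Rbp7, a retinoid-binding protein of endothelium and fat, and 1.11 for the nuclease-domain gene Endod1. Smad6, an inhibitor of bone morphogenetic protein signalling, differed by 0.98, the growth factor binding protein Igfbp3 by 0.97 and Orai1, the pore of the store-operated calcium channel, by 0.94. N4bp2l1 (0.92) and the small membrane protein Smagp (0.90) completed the set. Without PM replicate 1 Sult1a1 differed by 0.76 and Smad6 by 0.58. Of the other Endod1 probe sets 1 gave -0.09, against 0.84 and 0.53 for the rest. All of these genes had an adjusted p of 0.9657.

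Several of the lowest differences were larger, and some were uneven between arrays. Rab27b, a small GTPase of vesicle secretion, stood at 6.82, 5.35 and 6.35 in the PM hearts, against 7.66, 8.30 and 9.86 in the PBS hearts, a difference of -2.43 (95% interval -3.54 to -1.33, limma adjusted p = 0.6446), while all 6 wild-type hearts lay between 5.24 and 5.59. B3galt2, a galactosyltransferase, stood at 4.79, 9.08 and 8.46 in the PM hearts, against 9.63, 9.37 and 10.35 in the PBS hearts (-2.34, -4.47 to -0.22). PM replicate 1 alone was far below the others there, the difference without it was -1.02, and other probe sets gave -1.17 and -0.16. Lman1l, a lectin of the secretory pathway, stood at 5.38, 6.84 and 6.97 in the PM hearts, against 7.48, 9.15 and 7.20 in the PBS hearts (-1.55, -2.76 to -0.34), and it differed by -0.94 without PBS replicate 2.

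D3Ertd751e, a gene without a described role here, stood at 6.29, 6.08 and 7.70 in the PM hearts, against 8.41, 8.0 and 8.17 in the PBS hearts. Its difference was -1.51 (-2.26 to -0.75), while a second probe set gave 0.33. Cdkl2, a cyclin-dependent-kinase-like kinase, differed by -1.48, with -0.12 in a second probe set. Amot, a scaffold of the Hippo pathway, differed by -1.40 and Ahsa2, a relative of the co-chaperone that activates HSP90, by -1.39. Nucb2, the calcium-binding precursor of a satiety peptide, differed by -1.23, the nucleotide synthesis enzyme Prps2 by -1.13 and the centriolar protein Ccdc68 by -1.11. The plot of levels by array shows the 12 leading genes next to the wild-type hearts.

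**Figure D2:**
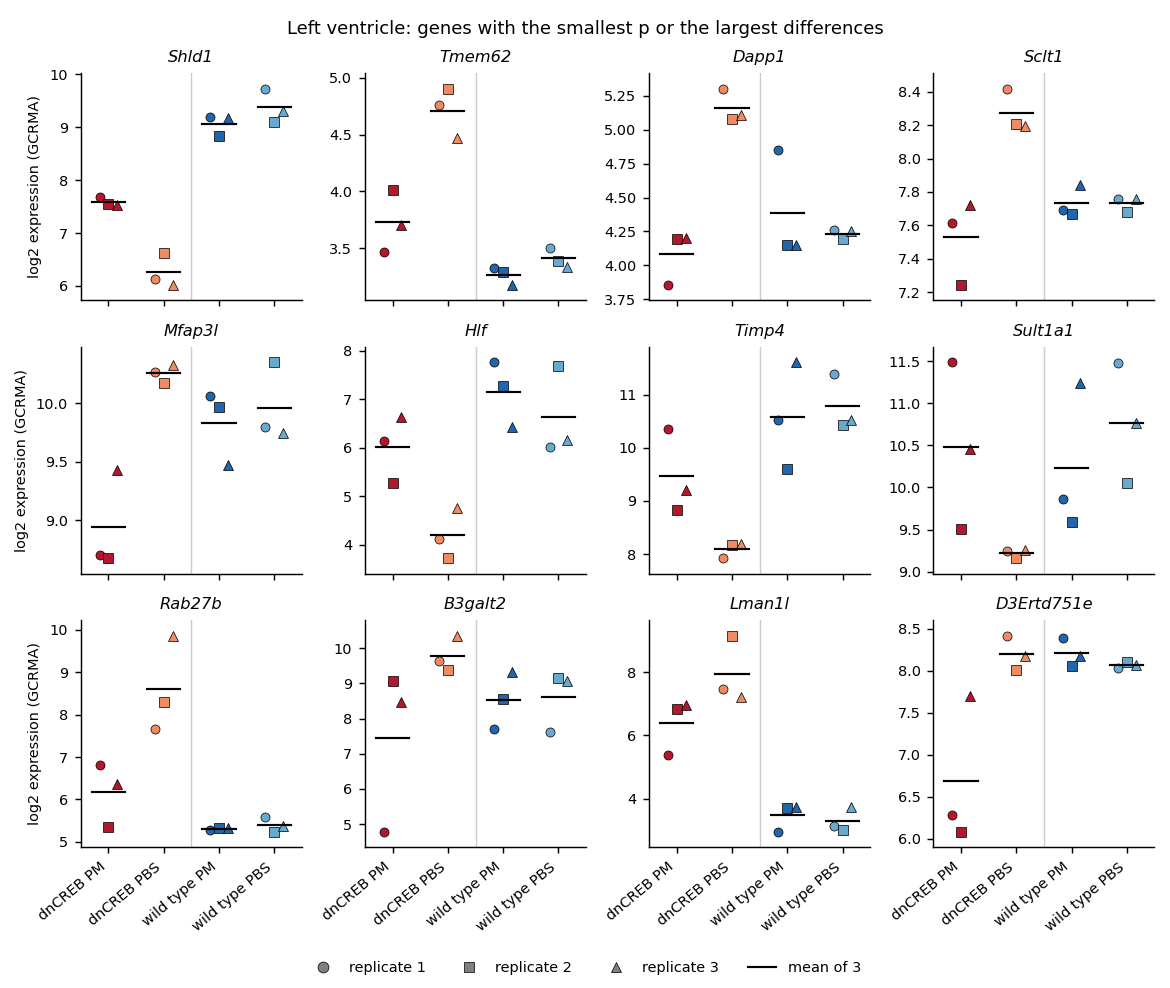
Log2 expression (y axis, a separate range for each gene) in each left ventricle of dnCREB PM, dnCREB PBS, wild-type PM and wild-type PBS mice, with marker shape for the replicate number and a line at the mean of 3. The genes are the 5 with the smallest p, then the 3 highest and the 4 lowest differences not already shown. In each gene the dnCREB PM and dnCREB PBS hearts do not overlap, and the wild-type groups overlap in 11 of them.

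No gene of the failing and hypertrophied heart passed the test. Of 21 measured members of this list, 0 passed at an adjusted p (0.0% of all genes) or an unadjusted p under 0.05 (4.92% of all genes). The differences ran from -0.55 to 0.67 with a median of 0.03, and the 95% intervals had a median half-width of 0.52. The 5 genes that follow were chosen after their values were seen. Nppa, the atrial natriuretic peptide, stood at 15.74, 15.39 and 15.61 in the PM hearts, against 15.70, 15.57 and 15.45 in the PBS hearts, a difference of 0.005 (95% interval -0.73 to 0.74). Nppb, the B-type peptide released by stretched muscle, differed by 0.03 (-0.81 to 0.88), and the slow myosin Myh7 by 0.05 (-1.63 to 1.72). Skeletal actin Acta1 differed by -0.18 (-1.07 to 0.71) and the stretch-responsive Ankrd1 by -0.03 (-0.30 to 0.24). The smallest p in the list belonged to Cilp, a matrix protein of the remodelled heart, which stood at 10.98, 11.52 and 11.80 in the PM hearts, against 10.20, 10.25 and 11.84 in the PBS hearts, a difference of 0.67 (-0.16 to 1.5) that was 0.39 without PBS replicate 1 and 1.21 without PBS replicate 3. Rcan1, the inhibitor of calcineurin, differed by -0.55 (-1.28 to 0.18) and the LIM protein Fhl2 by 0.37 (-0.14 to 0.88).

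**Figure D3:**
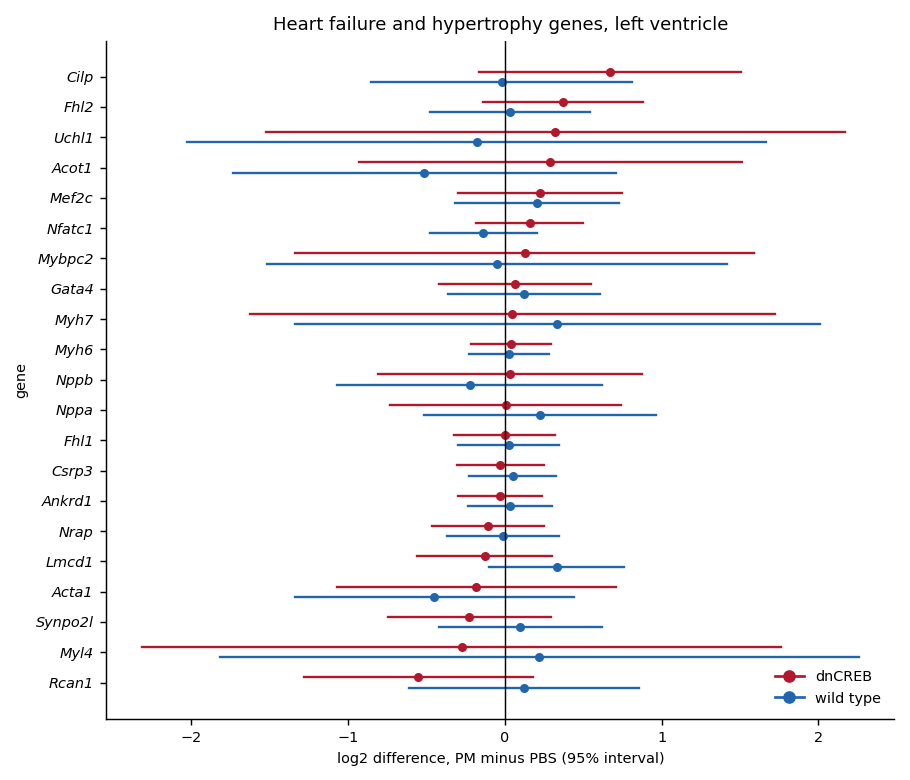
PM minus PBS log2 difference (x axis) with its 95% interval from limma for the 21 measured heart failure and hypertrophy genes, in dnCREB hearts (red) and wild-type hearts (blue). Every interval in both genotypes includes 0.

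Matrix genes divided. Of 42 measured members 4 were higher and 1 lower at an unadjusted p under 0.05, with a median of 0.06, where 1.42% of all genes were higher and 3.5% lower. The remodelling genes among them were Mmp14, described above, and the inhibitor Timp3, which differed by 0.70 (0.03 to 1.38). Eln, the elastin gene, stood at 12.30, 10.62 and 12.25 in the PM hearts, against 10.23, 10.39 and 10.72 in the PBS hearts, a difference of 1.28 (0.17 to 2.39) with 1 PM heart inside the PBS range. Thbs2, a matricellular protein, differed by 0.68 (0.04 to 1.32), with 0.38 in another probe set. The proteoglycan Vcan stood at 10.39, 10.20 and 11.04 in the PM hearts, against 11.00, 11.36 and 11.46 in the PBS hearts (-0.73, -1.43 to -0.03). Comp, a cartilage-type matrix protein, differed by -0.62 (-1.29 to 0.05). The whole list was spread widely over the PM hearts, with median deviations of -0.41, -0.04 and 0.56 from the mean of the 6 ventricles, against -0.22, 0.02 and 0.06 in the PBS hearts. Summed fibroblast markers were 17.21 to 17.89 in the PM hearts and 17.48 to 17.63 in the PBS hearts on the log2 scale, and their part in these values was not tested.

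Few genes of calcium handling and of ion channels passed the unadjusted threshold, where 1.42% of all genes were higher and 3.5% lower. In calcium handling 1 of 25 members was higher and 0 were lower at an unadjusted p under 0.05. This was Sri, sorcin, a calcium-binding regulator of the ryanodine receptor, at 11.54, 11.64 and 11.39 in the PM hearts, against 11.22, 10.53 and 11.20 in the PBS hearts (0.54, 0.07 to 1.01). It differed by 0.31 without PBS replicate 2 and by 0.10 in a second probe set. Chosen after their values were seen, the calcium pump Atp2a2 differed by -0.04 (-0.26 to 0.18), with -0.76 to 0.02 in its 5 other probe sets, and its inhibitor Pln by -0.03 (-0.25 to 0.18). Of 19 potassium and pacemaker channels 2 were lower and 0 higher, both of them pore subunits of the transient outward current. Kcnd2 stood at 8.37, 7.95 and 8.45 in the PM hearts, against 8.42, 8.95 and 9.20 in the PBS hearts (-0.60, -1.12 to -0.07), while other probe sets gave 0.39 and -0.32. Kcnd3 stood at 7.44, 7.58 and 7.45 in the PM hearts, against 7.85, 8.07 and 8.02 in the PBS hearts (-0.49, -0.95 to -0.03), without overlap. Kcnj3, a subunit of the acetylcholine-activated channel, differed by -1.13 (-2.45 to 0.19), while other probe sets gave 0.52 and -0.69. Sodium channels and pumps (5 members), gap junction and conduction genes (11) and adrenergic and renin-angiotensin genes (15) had 0 members at an unadjusted p under 0.05, with medians of 0.04, -0.03 and 0.03. Their smallest p-values belonged to the sodium channel Scn7a (-0.17), the cardiac transcription factor Nkx2-5 (0.24) and the angiotensin receptor Agtr1a (0.48).

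CREB partners and immediate early genes were examined because heart muscle cells of both groups carry the dominant negative CREB1. Of 27 measured members 1 was higher and 1 lower at an unadjusted p under 0.05, against 1.42% and 3.5% of all genes. The list median was 0.10. Crtc3, a coactivator that docks on CREB, stood at 7.6, 7.58 and 7.65 in the PM hearts, against 7.29, 7.40 and 7.33 in the PBS hearts (0.27, 0.07 to 0.47). Its wild-type difference was 0.40 (0.20 to 0.61). Nr4a2, an orphan nuclear receptor and immediate early gene, stood at 5.44, 5.75 and 5.32 in the PM hearts, against 5.44, 6.60 and 7.33 in the PBS hearts (-0.95, -1.77 to -0.13), and PBS replicate 1 lay within the PM range. The difference was -1.46 without PBS replicate 1 and -0.51 without PBS replicate 3. The coactivator of mitochondrial biogenesis Ppargc1a differed by 1.83 (-0.08 to 3.73), a value set by PBS replicate 3 at 6.28, against 10.52 and 9.99 in the other PBS hearts, and 0.50 without it. The other Ppargc1a probe sets gave -0.32, -0.21, 0.12 and -0.14. Myc differed by 1.00 (-0.06 to 2.06) and the survival factor Bcl2 by -0.58 (-1.34 to 0.17), with 0.19 and -0.23 in other probe sets.

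The cyclic AMP response element was looked for in the promoters of all tested genes. RefSeq windows (build GRCm38.p6) of 300 bases, with 250 before and 50 after the gene start, matched 8100 of the 9962 genes. The full element TGACGTCA, which reads the same on both strands, was in a window of 282 of these genes (3.48%). It was in 588 of all 32851 windows (1.79%), those of genes not tested included. The first share counts genes and the second counts windows, so they cannot be compared. Of the 282 genes, 17 (6.03%) had an unadjusted p under 0.05, 4 higher and 13 lower, against 376 of 7818 genes without it (4.81%), and the median differences were -0.06 and -0.03. limma called 0 of either at an adjusted p under 0.05. Of the 21 CREB and immediate early genes with a window, 2 held the element, Btg2, an antiproliferative immediate early gene, and Dusp1, a phosphatase of MAP kinases. Their windows are printed to show the element, which starts 166 bases before the Btg2 start and 143 bases before the Dusp1 start. They lie on the minus strand at chr1:134079106-134079405 for Btg2 and chr17:26508423-26508722 for Dusp1, and the capitals mark the element.
Btg2: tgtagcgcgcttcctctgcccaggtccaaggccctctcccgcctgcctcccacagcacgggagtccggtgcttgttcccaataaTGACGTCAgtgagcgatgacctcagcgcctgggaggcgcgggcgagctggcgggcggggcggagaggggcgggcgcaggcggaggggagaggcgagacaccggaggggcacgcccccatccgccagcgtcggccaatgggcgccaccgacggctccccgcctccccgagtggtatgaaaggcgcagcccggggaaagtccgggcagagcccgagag
Dusp1: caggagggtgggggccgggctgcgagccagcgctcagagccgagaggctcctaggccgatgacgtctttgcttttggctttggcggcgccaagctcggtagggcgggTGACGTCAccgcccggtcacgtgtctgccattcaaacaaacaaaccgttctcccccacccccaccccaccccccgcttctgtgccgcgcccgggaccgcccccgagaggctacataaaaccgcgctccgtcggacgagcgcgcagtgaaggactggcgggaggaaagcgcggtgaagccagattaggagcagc
Btg2 stood at 10.03, 10.12 and 7.75 in the PM hearts, against 9.59, 9.39 and 9.81 in the PBS hearts, a difference of -0.29 (-1.48 to 0.89) that was 0.48 without PM replicate 3. Dusp1 stood at 12.91, 12.71 and 11.74 in the PM hearts, against 12.10, 11.96 and 12.25 in the PBS hearts, a difference of 0.35 (-0.35 to 1.05) that was 0.13 without PM replicate 1 and 0.71 without PM replicate 3. In both genes PM replicate 3 was the lowest of the 6 hearts and PM replicates 1 and 2 were the highest. These 2 genes were named for the element in their windows, and the presence of the letters does not show binding.

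Few genes of energy metabolism passed the unadjusted threshold, where 1.42% of all genes were higher and 3.5% lower. Of 33 fatty acid oxidation and uptake genes 0 passed at an unadjusted p under 0.05, the median was 0.00 and the differences ran from -0.20 to 0.32. The smallest p-values there belonged to the fatty acid carrier Fabp4 (0.26, -0.08 to 0.59) and the lipase Pnpla2 (0.19, -0.13 to 0.51). Among genes of the TCA cycle and of oxidative phosphorylation 37 of 46 were below 0, with a median of -0.05, while over all genes 5646 of 9962 were below 0 with a median of -0.03. There, 2 members were lower and 0 higher at an unadjusted p under 0.05. The groups did not overlap in 8 members, all lower, against 4.97% lower and 2.51% higher without overlap over all genes, and the list median was 0.01 without PBS replicate 1. The 8 differences, among them subunits of complex I (Ndufa5, -0.21) and of cytochrome oxidase (Cox5a, -0.13), ran from -0.34 to -0.13. Esrrg, a nuclear receptor that drives mitochondrial genes, stood at 9.87, 10.07 and 9.68 in the PM hearts, against 10.24, 10.18 and 10.22 in the PBS hearts (-0.34, -0.62 to -0.06). Other Esrrg probe sets gave -0.06 and -0.68. Sucla2, a subunit of succinyl-CoA synthetase, differed by -0.23 (-0.44 to -0.03). Of 25 glycolysis genes 1 was lower, Pfkfb2, the cardiac enzyme that makes the activator of phosphofructokinase, at 8.48, 8.80 and 9.13 in the PM hearts, against 9.64, 9.53 and 9.32 in the PBS hearts (-0.69, -1.12 to -0.27).

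Clock genes and glucocorticoid-induced genes had medians above 0. Of 21 clock genes 2 were higher (1.42% of all genes) and 0 lower (3.5% of all genes) at an unadjusted p under 0.05, with a median of 0.11. Beside Hlf this was Usp2, a deubiquitinase under clock control, at 11.31, 11.12 and 11.38 in the PM hearts, against 10.73, 10.66 and 10.48 in the PBS hearts (0.65, 0.18 to 1.11), and its second probe set gave 0.43. The repressor Cry2 differed by 0.62 (-0.05 to 1.29) and the activator Clock by -0.48 (-1.0 to 0.03). The time of day of tissue collection is not given in the labels used here, and its part in these values was not tested.

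Of 25 glucocorticoid-response genes 20 were above 0, with a median of 0.40. At an unadjusted p under 0.05, 1 was higher (1.42% of all genes). This was Klf15, a steroid-induced regulator of heart metabolism, at 10.60, 9.05 and 9.23 in the PM hearts, against 8.72, 8.37 and 9.07 in the PBS hearts (0.91, 0.01 to 1.80), and without PM replicate 1 it differed by 0.42. Zbtb16, another classical steroid target, stood at 11.27, 8.64 and 10.62 in the PM hearts, against 7.55, 7.57 and 10.28 in the PBS hearts (1.71, -0.22 to 3.65). It differed by 2.62 without PBS replicate 3, and by 1.16 and 0.47 in other probe sets. Sgk1, a steroid-induced kinase, stood at 13.80, 12.17 and 12.17 in the PM hearts, against 11.33, 12.48 and 12.32 in the PBS hearts (0.67, -0.28 to 1.62), with 0.12 without PM replicate 1. PM replicate 1 was the highest of the 6 hearts in all 3 genes. The list's median deviation was 1.10 in that heart, against -0.21 and -0.03 in the other PM hearts and -0.40 to 0.02 in the PBS hearts. Without PM replicate 1 the list median was 0.13. Lists by array are shown in the plot of list medians.

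**Figure D4:**
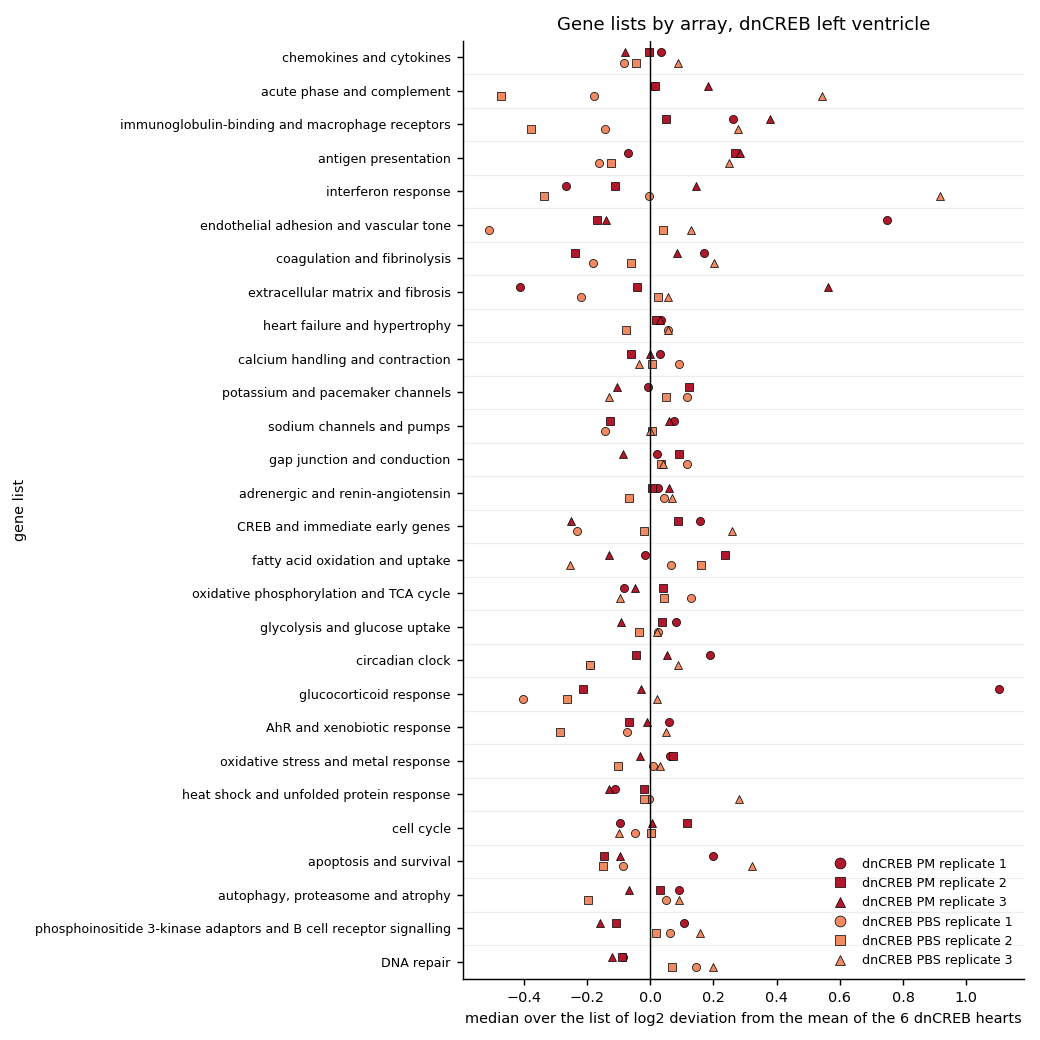
Median over each of the 28 gene lists (y axis) of the log2 deviation from the mean of the 6 dnCREB ventricles (x axis), 1 point per array, PM hearts in dark red and PBS hearts in orange. PM replicate 1 stood at 1.10 for the glucocorticoid list and 0.75 for the endothelial list, and PBS replicate 3 stood at 0.92 for the interferon list. Heart failure and calcium lists lay near 0. The fatty acid list ran from -0.25 in PBS replicate 3 to 0.23 in PM replicate 2.

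Among secreted inflammatory signals no member passed the unadjusted threshold, which 4.92% of all genes passed. Of 19 chemokine and cytokine genes 0 passed at an unadjusted p under 0.05, and the differences ran from -0.71 to 0.56 with a median of 0.02. Acute phase and complement genes had 0 of 15 members at an unadjusted p under 0.05 and a median of 0.05. The smallest p-values there belonged to the copper carrier Cp (-1.11, -2.25 to 0.03) and the pentraxin Ptx3 (-0.95, -2.11 to 0.22). Lcn2, an iron-scavenging protein of the acute phase, stood at 13.05, 11.19 and 8.76 in the PM hearts, against 9.44, 9.03 and 10.48 in the PBS hearts (1.34, -1.41 to 4.10), and it differed by 0.32 without PM replicate 1 and by 2.46 without PM replicate 3.

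Receptors of macrophages had a median above 0 without passing a test. In the list of immunoglobulin-binding and macrophage receptors 10 of 12 members were above 0, with a median of 0.41. Of these members 0 passed at an unadjusted p under 0.05, against 4.92% of all genes. The lectin Clec4n stood at 7.95, 7.96 and 7.86 in the PM hearts, against 6.59, 4.39 and 7.88 in the PBS hearts (1.63, -0.01 to 3.28), and without PBS replicate 2 it differed by 0.68. The inhibitory Fc receptor Fcgr2b stood at 7.98, 8.51 and 8.68 in the PM hearts, against 7.76, 7.81 and 7.93 in the PBS hearts (0.56, -0.05 to 1.16), without overlap, while other probe sets gave -0.01 and 0.13. Another Fc receptor, Fcgr3, differed by 0.77 (-0.45 to 1.98), also without overlap, and by 0.35 without PBS replicate 2. These were the 2 of 12 members that were higher without overlap, against 2.51% of all genes. The haemoglobin scavenger receptor Cd163 differed by 0.87 (-0.42 to 2.16). Macrophage and monocyte markers were above 0 in 13 of 15 tested members, with a median of 0.26, and their summed level was 15.44 to 15.87 in the PM hearts, against 15.10 to 15.70 in the PBS hearts. Of 17 such markers Itgam was at or below 4 on all 6 arrays. In whole tissue, more cells of a type and more RNA per cell cannot be told apart. The list medians in wild-type hearts were -0.38 for the receptors and -0.48 for the markers, and the interaction with genotype had 3 members of each list at an unadjusted p under 0.05, against 3.62% of all genes, and 0 at an adjusted p under 0.05. The lists share Cd14, Cd163 and Mrc1, and Cd14 is counted in both.

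Antigen presentation genes had a median of 0.24 over 12 members, with 0 at an unadjusted p under 0.05 (4.92% of all genes). H2-Aa, a class II chain, differed by 1.31 (-0.65 to 3.27), with 1.33 and 0.63 in other probe sets. The invariant chain Cd74 differed by 1.17 (-0.72 to 3.05). Interferon-response genes lay mostly below 0, with 4 of 21 members above 0 and a median of -0.32. At an unadjusted p under 0.05, 1 was lower (3.5% of all genes). The RNA sensor Ifih1 stood at 7.33, 6.42 and 6.92 in the PM hearts, against 7.56, 6.98 and 8.69 in the PBS hearts (-0.85, -1.69 to -0.02), and without PBS replicate 3 it differed by -0.38. Ifit1, an interferon-induced translation inhibitor, stood at 1.94, 1.92 and 4.62 in the PM hearts, against 5.49, 1.89 and 7.98 in the PBS hearts (-2.30, -5.04 to 0.45), and it differed by -3.91 without PBS replicate 2 and by -0.86 without PBS replicate 3. PBS replicate 3 was the highest heart in both, and the list median without it was 0.03.

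Genes of vessel tone went in both directions. Of 22 genes of endothelial adhesion and vascular tone 1 was higher and 1 lower at an unadjusted p under 0.05. Among all genes 1.42% were higher and 3.5% lower. The list median was 0.32, and it was -0.06 without PM replicate 1. Edn1, the vasoconstrictor endothelin, stood at 9.88, 7.84 and 8.75 in the PM hearts, against 7.59, 7.59 and 8.36 in the PBS hearts (0.98, 0.01 to 1.94), and it differed by 0.45 without PM replicate 1 and by 1.47 without PM replicate 2. Ptgs2, the inducible cyclooxygenase, stood at 4.91, 4.71 and 6.51 in the PM hearts, against 5.88, 8.11 and 8.01 in the PBS hearts (-1.95, -3.30 to -0.61). Of 12 coagulation and fibrinolysis genes 0 passed at an unadjusted p under 0.05, and the median was 0.08. Vwf, the von Willebrand factor of endothelium, stood at 13.71, 10.90 and 11.46 in the PM hearts, against 10.38, 10.85 and 12.01 in the PBS hearts (0.94, -0.51 to 2.40), and it differed by 0.10 without PM replicate 1 and by 1.51 without PM replicate 2. Endothelial markers had 9 of 9 members above 4 and a summed level of 15.85 to 16.65 in the PM hearts, against 15.75 to 16.04 in the PBS hearts, with the highest deviation in PM replicate 1. Their part in the vessel values was not tested.

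Defence against foreign compounds, oxidants and misfolded proteins had few members past the unadjusted threshold, where 1.42% of all genes were higher and 3.5% lower. Of 10 genes of the aryl hydrocarbon receptor and xenobiotic response 0 passed at an unadjusted p under 0.05. The receptor target Cyp1b1, a monooxygenase, stood at 9.22, 6.83 and 6.25 in the PM hearts, against 5.73, 5.53 and 7.28 in the PBS hearts (1.26, -0.44 to 2.95), with 0.36 without PM replicate 1 and 0.62 in another probe set. Of 28 oxidative stress and metal genes 1 was higher, Gclc, the catalytic subunit for glutathione synthesis, at 9.76, 9.25 and 9.43 in the PM hearts, against 9.31, 8.90 and 9.18 in the PBS hearts (0.35, 0.02 to 0.69). It differed by 0.21 without PM replicate 1 and by 0.0005 in a second probe set. Its modifier subunit Gclm differed by 0.80 (-0.01 to 1.60), with 0.13 in another probe set. Heat shock and unfolded protein genes were below 0 in 25 of 32 members, with a median of -0.14 and 2 lower at an unadjusted p under 0.05. In 7 members the PM hearts lay below the PBS hearts without overlap and in 1 above them, against 4.97% and 2.51% of all genes. PBS replicate 3 stood apart with a median deviation of 0.28, against -0.13 to -0.02 in the PM hearts and -0.02 and -0.003 in the other PBS hearts, and without it the list median was -0.09. The members at an unadjusted p under 0.05 were the chaperones of the endoplasmic reticulum Pdia4 (-0.51, -1.01 to -0.02) and Hsp90b1 (-0.37, -0.74 to -0.01), both without overlap. Pdia4 differed by -0.29 without PBS replicate 3, and a second Hsp90b1 probe set gave -0.09.

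The DNA repair list had 1 higher (1.42% of all genes) and 3 lower (3.5% of all genes) of 13 members at an unadjusted p under 0.05, with a median of -0.26. It was drawn up with the result for Shld1 known, so it adds no support to that gene. Trp53bp1, which binds chromatin at breaks and acts upstream of shieldin, stood at 9.98, 10.43 and 10.10 in the PM hearts, against 10.66, 10.71 and 11.21 in the PBS hearts (-0.69, -1.23 to -0.16), with -0.34 in another probe set. Rif1, the link between Trp53bp1 and shieldin, stood at 9.93, 9.64 and 9.85 in the PM hearts, against 10.13, 10.10 and 10.44 in the PBS hearts (-0.42, -0.76 to -0.08). Other Rif1 probe sets gave -0.76, -0.90 and -0.28. The damage kinase Atm differed by -0.54 (-0.97 to -0.11), while its second probe set gave 0.11. In these 4 genes the groups did not overlap, as in 2.51% of all genes for higher and 4.97% for lower.

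In apoptosis, autophagy and kinase signalling single members passed the unadjusted threshold, where 1.42% of all genes were higher and 3.5% lower. Of 22 apoptosis and survival genes 1 was lower, the survival factor Bcl2l2 (-0.37, -0.68 to -0.06). Of 25 autophagy, proteasome and atrophy genes 1 was higher, the autophagy kinase Ulk1, at 10.34, 10.16 and 10.20 in the PM hearts, against 9.88, 9.77 and 9.93 in the PBS hearts (0.37, 0.05 to 0.69). Of 10 genes of phosphoinositide 3-kinase adaptors and B cell receptor signalling 1 was higher, the lipid phosphatase Inpp5d (0.36), and 1 was lower, Dapp1. This list too was drawn up with the result for Dapp1 known. Of 19 cell cycle genes 0 passed, with a median of 0.03.

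Markers of blood and neighbouring tissue varied between single hearts. Neutrophil markers had a summed level of 8.69 to 13.77 in the PM hearts, against 6.71 to 10.95 in the PBS hearts, and 7 of 11 of them, Elane and Mpo among them, were at or below 4 on all 6 arrays. S100a8, a calcium-binding protein of neutrophils, stood at 13.01, 8.35 and 7.11 in the PM hearts, against 9.30, 2.80 and 10.15 in the PBS hearts (2.07, -3.43 to 7.57). Its partner S100a9 differed by 2.01 (-2.64 to 6.66). Without PBS replicate 2 these differences were -0.24 and -0.06, so that 1 heart decided their direction. The part of neutrophils in the high Lcn2 of PM replicate 1 was not tested.

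Erythroid markers had a summed level of 7.15 to 8.47 in the PM hearts, against 6.54 to 7.14 in the PBS hearts, with 3 of 5 at or below 4. These sums only just missed overlap, and in both tested members, Alas2 and Hbb-b2, the groups overlapped. Their median difference was 1.15, and it was 1.21 in wild-type hearts. Alas2, the first enzyme of haem synthesis in red cells, differed by 1.72 (-0.33 to 3.77). Adipocyte markers had a summed level of 15.56 to 16.24 in the PM hearts, against 15.51 to 15.72 in the PBS hearts. The defining fat markers Adipoq, Retn and Lep were at or below 4, and the sum was mostly Fabp4. The 3 tested members were above 0 with a median of 0.59, and in each the groups overlapped. Car3 stood at 2.41, 7.91 and 9.21 in the PM hearts, against 6.51, 2.64 and 2.81 in the PBS hearts. It differed by 2.52, by 4.57 without PM replicate 1 and by 1.17 without PM replicate 3. A second Car3 probe set gave 0.13. Plin4 differed by 0.59, and by 0.24 without PM replicate 1. T and natural killer cell markers were at or below 4 in 13 of 15 members and B cell markers in 8 of 10. The summed levels of lymphatic endothelium (11.56 to 12.41 in the PM hearts, 11.67 to 12.34 in the PBS hearts), smooth muscle (15.69 to 16.17 in the PM hearts, 15.70 to 15.95 in the PBS hearts) and fast skeletal muscle (14.36 to 14.54 in the PM hearts, 14.26 to 14.64 in the PBS hearts) overlapped between the groups. Of the 10 fast skeletal markers 8 were at or below 4 on all 6 arrays, and the sum was mostly Ckm, the muscle creatine kinase that heart muscle also makes. Summed levels also overlapped for atrial muscle, brown fat, mesothelium and nerve. The plot of uneven genes shows how single arrays set such values.

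**Figure D5:**
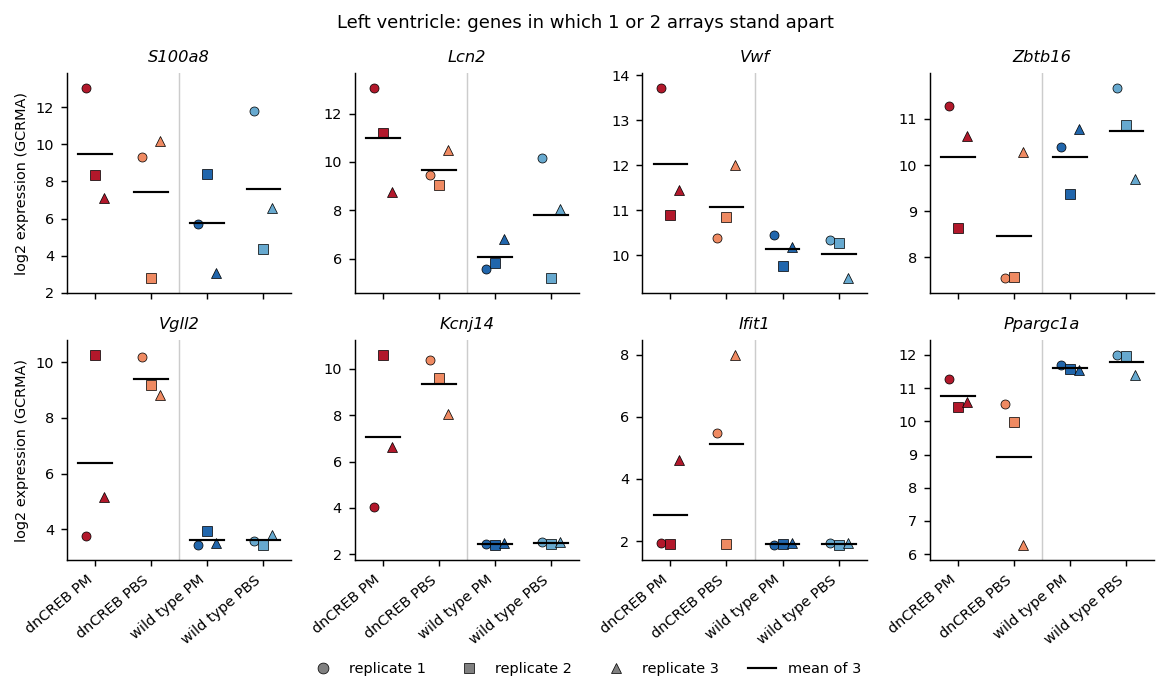
Log2 expression (y axis, a separate range for each gene) of 8 genes, chosen after their values were seen, in each left ventricle of dnCREB PM, dnCREB PBS, wild-type PM and wild-type PBS mice, with marker shape for the replicate number and a line at the mean of 3. PM replicate 1 was the highest heart of its group in S100a8, Lcn2, Vwf and Zbtb16 and the lowest in Vgll2 and Kcnj14, and PBS replicate 3 was the highest of its group in Ifit1 and the lowest in Ppargc1a.

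Leaving out 1 array brought calls that the 6 arrays together did not give. Without PM replicate 2 limma called 5 genes. Vgll2, a cofactor of TEAD transcription factors known from skeletal muscle, stood at 3.76, 10.24 and 5.14 in the PM hearts, against 10.17, 9.16 and 8.84 in the PBS hearts, and its difference was -3.01 with all arrays and -4.94 without PM replicate 2 (limma adjusted p = 0.0109), and -1.70 without PM replicate 1. The inward rectifier channel Kcnj14 had a like order of arrays, at 4.02, 10.58 and 6.62 in the PM hearts, against 10.36, 9.58 and 8.06 in the PBS hearts (-2.26, -5.06 to 0.54), with -4.01 without PM replicate 2 and -0.73 without PM replicate 1. Without PM replicate 3, the heart with high Xist, limma called 4 genes, all lower. They included D3Ertd751e at -2.01 (limma adjusted p = 0.0024) and Slc24a2, an exchanger of sodium for calcium and potassium, at -1.86 (limma adjusted p = 0.0038). Slc24a2 stood at 3.71, 4.11 and 5.86 in the PM hearts, against 5.57, 5.96 and 5.79 in the PBS hearts, so that PM replicate 3 lay among the PBS hearts, and without PM replicate 1 it differed by -0.79. Without PBS replicate 1 the 1 gene called was Cep57, a centrosomal protein, at 1.25 (limma adjusted p = 0.0079), against 0.78 with all arrays.

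Whether the ventricle of dnCREB mice differed from that of wild-type mice in its change with PM was tested as an interaction. In wild-type hearts alone limma called 1 gene (0.01%), Aqp4 (adjusted p = 0.0147), and 146 genes (1.47%) had an unadjusted p under 0.05. For the interaction limma called 0 of 9962 genes (0.0%), with 361 at an unadjusted p under 0.05 (3.62%) and a smallest adjusted p of 0.2377. That value belonged to Aqp4, a water channel, at 2.53, 2.65 and 2.70 in dnCREB PM hearts, against 2.55, 2.57 and 2.52 in dnCREB PBS hearts, where it was under the level of 4 throughout. In wild-type hearts Aqp4 stood at 4.75, 4.87 and 4.87 with PM, against 7.03, 7.07 and 6.2 with PBS. The difference between the genotypes was 2.02 (95% interval 1.40 to 2.64). Shld1 followed with an interaction of 1.63 (1.02 to 2.25, limma adjusted p = 0.6767), Dapp1 with -1.22 (-1.81 to -0.64), Taf13, a subunit of the general transcription factor TFIID, with -0.78 (-1.16 to -0.40) and the centrosomal Lrrcc1 with -1.55 (-2.32 to -0.79). The interval of an interaction had a median half-width of 0.60. Genotype and the sex-chromosome class cannot be told apart in this test, since 5 of 6 dnCREB ventricles had high Eif2s3y and all wild-type ventricles high Xist.

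The change with PM in the dnCREB ventricle was also set against that in the dnCREB lung over 12318 genes. limma called 1 gene (0.00812%) for the difference between the tissues, with 1014 at an unadjusted p under 0.05 (8.23%). Runx1, a transcription factor of blood cells and of injured tissue, was at 2.60 ± 0.02 in PM hearts and 2.62 ± 0.04 in PBS hearts (SD, n = 3), below the level of 4. In lung it was at 6.69 ± 0.15 with PM and 7.80 ± 0.13 with PBS. The difference with PM was -0.02 in the heart and -1.11 ± 0.16 (SE) in the lung, which was not called on its own (limma adjusted p = 0.1571). Heart minus lung was 1.09 ± 0.17 (SE, limma adjusted p = 0.0481), a value set by the lung, and it was not called in 14 of 22 alternatives. The gene called in the dnCREB lung, Cpxm2, a carboxypeptidase-like matrix protein, differed by 1.81 there (limma adjusted p = 0.0416, 0.00862% of 11600 genes) and by -0.92 ± 0.63 (SE) in the heart, and the difference between the tissues did not pass (limma adjusted p = 0.258). Of the dnCREB lungs, PM replicate 3 and PBS replicates 1 and 3 had summed fast skeletal muscle markers of 13.40, 13.57 and 12.77, against 6.33 to 7.46 in the others, and their part in the lung values was not tested.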

How the data were processed

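RNA of 24 tissue samples was hybridised to Affymetrix mouse arrays. Deposited log2 values, 1 for each probe set, were made by the authors with GCRMA, a method that models background from probe sequence before normalization and summary. This is per the submitters' processing notes, which give no version, and the values were used without further normalization. Arrays hold no counts, and precision is limited by their number. Gene symbols came from the platform annotation, in which 34945 of 45037 probe sets had a single symbol. The 932 with several and the 9160 with none were left out. Probe sets were chosen and filtered by level as the report states.

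In R 4.3.3, limma 3.58.1 fitted a mean for each of the 4 heart groups over 12 arrays, and for heart minus lung a mean for each of the 8 groups over 24. Variances were moderated, p-values were adjusted by Benjamini-Hochberg across every tested gene, and the threshold was an adjusted p of 0.05. Errors are SE from limma or SD over n = 3 arrays, and ranges in parentheses after a difference are 95% intervals from limma. The p-values set a difference against the spread between arrays within groups, pooled over the groups fitted and moderated across genes. Summed marker levels are the log2 of the sum of linear values.

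Named genes were the 5 with the smallest p, the 12 highest and 12 lowest differences at an unadjusted p under 0.05 without overlap and with the higher group above 5, up to 6 members with the smallest p per list, Creb1, Xist and Eif2s3y, genes called with 1 array left out, and the leading genes of the interaction and of the lung comparison. Predicted genes were skipped. The members, the 28 gene lists and the 18 marker lists were chosen with earlier results of these data known. Alternatives were all probe sets, other level filters, quantile normalization, median centring, other sets of arrays in the model, weights for arrays, robust estimation with a variance trend, the replicate number as a block, the sex-chromosome class as a covariate and each array left out. The fit was tested on simulated data. The replicate numbers shared by PM and PBS were checked for pairing. The correlations of deviations between arrays of the same number were -0.3, 0.056 and -0.126, so the numbers were not taken as pairs. Python 3.11.15, pandas 2.3.3 and matplotlib 3.10.9 made the tables and plots.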

Additional observations from a re-analysis of the deposited data

Results flagged for a closer look

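Heart minus lung for the change with PM passed the test for Runx1 in dnCREB mice. It was 1.09 ± 0.17 (SE, limma adjusted p = 0.0481), with a change of -0.02 in the ventricle, where Runx1 lay below the level of 4, and of -1.11 in the lung, which alone was not called (limma adjusted p = 0.1571). The difference between the tissues is therefore set by the lung value. The adjusted p of that difference was between 0.0577 and 0.2017 under 14 alternatives, given with the other settings. The 3 dnCREB PM lungs had high Xist, as did 1 of the 3 dnCREB PBS lungs. In dnCREB PBS lung replicates 1 and 3 neither marker was high, with Xist at 2.95 and 3.02 and Eif2s3y at 3.18 and 3.17. The part of this imbalance was not tested apart from the sex-class setting, under which the limma adjusted p was 0.1319.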

How the results depend on the processing

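In dnCREB ventricle limma called 0 genes with all arrays, and also with all probe sets, with every level filter, with quantile normalization, centring, the compared groups only, array weights, and the variance trend. All 24 arrays in 1 model gave 3 calls (Rab27b, Dapp1 and Tmem62), the sex class as a covariate 4, and leaving out 1 array 0 to 5. Counts at an unadjusted p under 0.05 ran from 330 with the compared groups only to 1013 without PM replicate 2, with 490 in the setting reported and 728 with array weights. The interaction gave 0 calls, 3 with the sex class and 0 to 3 with 1 array left out. In these 2 heart tests PM replicate 3 alone set the sex-class term. The sex-class setting therefore gave the same counts as leaving that array out, and the 2 settings are not separate checks. Heart minus lung gave 1 call, 99 with all probe sets, 216 with array weights, 3 with the sex class, 0 with the filter at 6, with centring, with the compared groups only, with the variance trend or with the replicate block, and 0 to 19 with 1 array left out. The replicate block gave 0 calls in dnCREB ventricle and 0 for the interaction, and in the pairing check 0 of 3 PM arrays correlated best with the PBS array of the same number (r from -0.3 to 0.056 for equal numbers). With 1 array left out, the PM difference on the log2 scale ran from -0.239 to 3.44 for S100a8 and from -0.057 to 3.06 for S100a9, each lowest without PBS replicate 2. It ran from -0.704 to 0.479 for Btg2, from -0.0735 to 0.0972 for Nppa, from -0.104 to 0.166 for Nppb, from -0.057 to 0.0033 for Ankrd1, from -0.0945 to 0.0171 for Atp2a2 and from -0.0788 to 0.0034 for Pln, so that the sign of these 8 genes was not fixed. With quantile normalization Nppa was -8e-04, Ankrd1 0.0326 and Pln 0.0121. Nppa was -0.034 with array weights and -0.0094 with the sex class, Btg2 was 0.479 with the sex class, and Atp2a2 was 0.0221 with the probe set of highest mean in the heart. The cause of these moves was not tested. Low signal limits genes near the level of 4, such as Tmem62 and Dapp1, and 3 arrays a group leave a median half-width of 0.42 on the log2 scale.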
